A study of Danio rerio with 4 samples.

Results

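Digestive enzyme and hormone genes of the pancreas, cpb1, ela2, ela2l, ctrb1 and ins, were followed through GFP-positive cells sorted from zebrafish embryos. The probe sets were those to which the array's annotation gives exactly 1 of these symbols. This found 5 probe sets among the 15617 on the array, for 4 of the 5 genes. There were 2 for cpb1 (Entrez gene 322412) and 1 each for ela2 (403061), ela2l (334304) and ins (30262). The cpb1 probe set with the higher mean over the arrays is called the first. The symbol ctrb1 stands on none. The RefSeq gene table for assembly GRCz12tu gives ctrb1 as an older name of ctrb.1, which does have a probe set and is described with the other exocrine enzymes.

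The miR-34b morphants (n = 2 arrays) were AB embryos of the Tg(cmyb:EGFP) line that had received a morpholino, an antisense oligomer, against miR-34b, and the controls (n = 2 arrays) were embryos of the same strain and line that had received a control morpholino. All were taken at 3 days after fertilization. A dissected block of tissue that held the kidney was dissociated, and 20000 GFP-positive cells were sorted by the reporter alone, in which the cmyb promoter drives EGFP. The labels call these cells kidney multiciliated cells, and do not say how many embryos went into an array. Of 33 multiciliated cell markers listed, 17 had a probe set, and all 17 were tested. The array holds 20 probe sets for sequences that zebrafish lack. The filter on dim signals described below removes any gene as dim as these on all 4 arrays, so no tested marker could be. On single arrays, only dnai2a was as dim as the brightest of them, on control replicate 1 (4.64, log2). The annotation names no probe set for the markers foxj1a, foxj1b, gmnc, mcidas and ccno. In such bulk samples, fewer cells of a type and less RNA per cell cannot be told apart.

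As background, the pancreas has an exocrine part, whose acinar cells make and store digestive enzymes for release into the gut, and an endocrine part, whose islet cells release hormones into the blood. Carboxypeptidase B, encoded by cpb1, trims basic residues from the ends of peptides that trypsin has cut. The elastases encoded by ela2 and ela2l and the chymotrypsins are serine proteases. All are made as inactive precursors. Insulin, encoded by ins, is the glucose-lowering hormone of the beta cell, and zebrafish carry a second insulin gene, insb. The helix-loop-helix factor Ptf1a acts in the acinar lineage and the homeodomain factor Pdx1 in the early pancreas and in beta cells.

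The arrays agreed at r = 0.977 between the morphant arrays and r = 0.981 between the control arrays across the 11626 probe sets tested (a correlation across probe sets, which are no replicates). Spiked-in poly-A RNAs averaged 9.53 and 8.73 (log2) on the morphant arrays and 9.93 and 9.92 on the control arrays. All 5 probe sets of the pancreas genes passed the filter on dim signals, a mean over the 4 arrays above 5.10 (log2). ela2l passed through its controls alone, since its morphant mean of 4.59 lies under that level. Values below are log2 signals per probe set, on which 1 unit is 2-fold, unless they are called linear. Differences and list sums set different probe sets against each other on the same array, and are not read as amounts of RNA.

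Of the pancreas genes, the carboxypeptidase passed as higher by its first probe set only. Its second probe set, the elastases and the hormone gave large differences that did not pass the test. In limma's test with Benjamini-Hochberg adjustment over all probe sets, 1 of the 5 probe sets was higher in the morphants (2.49% of all probe sets were) and 0 were lower (0.12% of all). At an unadjusted p under 0.05, 3 were higher and 2 lower, beside 11.6% higher and 6.1% lower of all probe sets. The morphant and control arrays did not overlap in any of the 5, with 3 higher and 2 lower, against 25.1% and 24.7% of all probe sets. A difference of at least 2-fold was found in all 5 and in 6.19% of all probe sets. The genes were taken up with such results known, so these counts are a description and no evidence about pancreas genes as a class.

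The first cpb1 probe set gave 9.59 and 9.72 on the morphant arrays and 7.72 and 7.74 on the control arrays. The arrays of each group were close together and the groups stood far apart. By this probe set cpb1 rose by 1.92 ± 0.16 (log2, SE, 3.79-fold, limma adjusted p = 0.0183). The control arrays differed by 0.022, a smaller difference than in all but 6.32% of the probe sets tested. With the difference at nearly the same size, the call was lost when any 1 array was left out (1.86 to 1.99, adjusted p = 0.0518 to 0.0978), without the filter on dim probe sets (adjusted p = 0.113) and without moderated variances (adjusted p = 0.241).

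The second cpb1 probe set gave 9.43 and 9.27 on the morphant arrays and 7.37 and 8.47 on the control arrays. Here the control arrays spread widely, with control replicate 2 closer to the morphants. The difference was 1.43 ± 0.38 (SE, 2.69-fold) and did not pass (adjusted p = 0.148). Between the control arrays the difference was 1.11, larger than in 98.2% of the probe sets tested. Without control replicate 1 the value was 0.88 and without control replicate 2 it was 1.98. The 2 probe sets thus gave the same direction, and on control replicate 2 the first stood 0.73 below the second, while on the other arrays it stood 0.16 to 0.46 above.

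**Figure D1:**
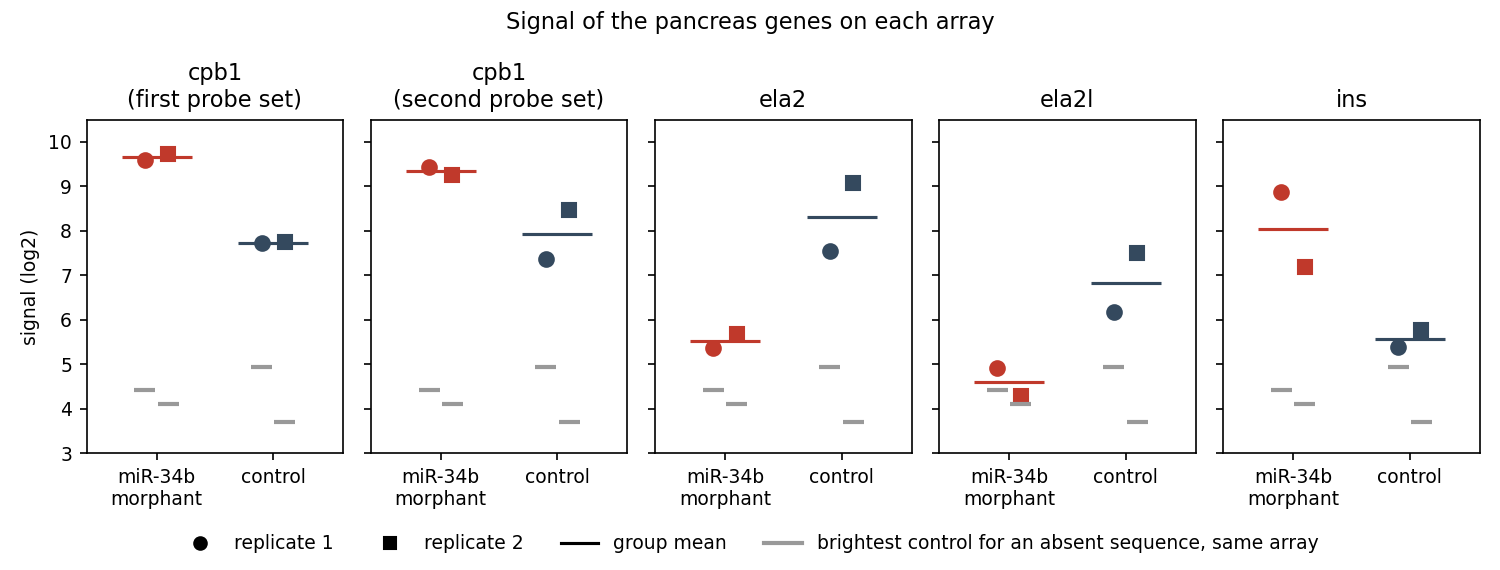
Log2 signal of the 5 probe sets on each array (y axis), with miR-34b morphants left and controls right in each panel, group means as lines and the brightest control for an absent sequence on the same array in grey. Both cpb1 probe sets and ins lie higher on the morphant arrays and ela2 and ela2l lower, with ela2l at 4.91 and 4.28 in the morphants, just above the grey marks.

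The elastases lay on the other side of 0. ela2 gave 5.36 and 5.69 on the morphant arrays and 7.55 and 9.07 on the control arrays. Both morphant arrays lay below both control arrays, and the nearest arrays of the groups were 1.86 apart. The difference was -2.78 ± 0.50 (SE), or 6.88-fold lower in the morphants, and did not pass (limma adjusted p = 0.0647). It was the largest difference towards lower signal among the 11626 probe sets tested, of which 14 passed as lower. As the genes were chosen with such results known, that rank is a description and no support. The control arrays differed by 1.52, more than in 99.4% of the probe sets, and the morphant arrays by 0.33.

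The neighbouring elastase ela2l gave 4.91 and 4.28 on the morphant arrays and 6.18 and 7.49 on the control arrays. It had the same order of groups as ela2, with control replicate 2 again the brightest array. The difference was -2.24 ± 0.47 (SE), or 4.73-fold lower, and did not pass (adjusted p = 0.0918). It was the second largest towards lower signal, again only a description, and ela2l was tested only because its controls lifted its mean past the filter. On the morphant arrays ela2l lay 0.48 and 0.17 above the brightest of the 20 absent-sequence controls, and ela2 lay 0.94 and 1.58 above it, so that both were dim there and the size of the ela2l difference in particular depends on how dim signals are measured. With 64 added to the linear signals before the logarithm, the ela2l difference was -1.04 and the ela2 difference -1.82 (adjusted p = 0.0261).

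In the RefSeq gene order ela2 follows directly after ela2l. alas2, the heme synthesis gene that lies 2 places before ela2l, gave 6.18 and 5.68 on the morphant arrays and 6.77 and 4.85 on the control arrays, with overlapping groups (0.12 ± 0.63, SE). As paralogs the elastases may share probe sequence. Within each array ela2 minus ela2l was 0.45 and 1.41 in the morphants and 1.37 and 1.58 in the controls. Apart from morphant replicate 1 that difference was nearly constant.

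Control replicate 2 weighed on the size of the elastase differences and not on their direction. Without it ela2 gave -2.02 and ela2l -1.59. Without control replicate 1 they were -3.54 and -2.90. The filter was set on all 4 arrays, so ela2l stood in these fits only through its bright control arrays. With all 4 arrays and no filter, limma gave ela2l an adjusted p of 0.266. Both morphant arrays lay below control replicate 1 taken alone in both genes.

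The insulin gene ins gave 8.88 and 7.20 on the morphant arrays and 5.39 and 5.76 on the control arrays. The groups were 1.43 apart at their nearest arrays, but the morphant arrays differed from each other by 1.68, more than in 99.6% of the probe sets tested. The difference was 2.46 ± 0.55 (SE, 5.50-fold) and did not pass (limma adjusted p = 0.104). Without morphant replicate 1 it was 1.62 and without morphant replicate 2 it was 3.30. On control replicate 1 ins lay 0.46 above the brightest absent-sequence control, and on control replicate 2 it lay 2.05 above.

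The second insulin gene, insb, was below the filter, and its values were singled out after they were seen. It gave 5.68 and 5.25 on the morphant arrays, above the absent-sequence controls, and 2.80 and 0.50 on the control arrays, within their range on both. The means were 5.47 and 1.65, and against the brightest absent-sequence control of each control array the morphants were at least 2.21-fold higher. When no probe set was filtered out, limma gave insb an adjusted p of 0.242. Both insulin genes were thus brighter on the morphant arrays, without passing the test, and as paralogs they may share probe sequence. The genes beside ins that were tested, epd and panx1b, gave -0.44 ± 0.29 and -0.31 ± 0.20 (SE), the groups of epd overlapping and both with adjusted p of 0.502 or more.

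Set against each other on the same array, the carboxypeptidase and the elastases gave differences that did not overlap between the groups. That follows from the separate groups and opposite directions given above, so it is a description and no further support. The first cpb1 probe set minus ela2 was 4.23 and 4.03 on the morphant arrays and 0.17 and -1.32 on the control arrays, and minus ela2l it was 4.68 and 5.44 against 1.54 and 0.25. The values in the morphants exceeded those in the controls by 3.86 and 3.14 at their nearest. With the second cpb1 probe set the nearest values were 3.76 and 3.34 apart. An exact two-sided permutation test over 2 against 2 arrays can give no p below 0.333, so it could not have passed for any of them. cpb1 minus ins, by contrast, was 0.71 and 2.52 on the morphant arrays and 2.33 and 1.98 on the control arrays, and overlapped.

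Most other genes of the exocrine list lay below 0 like the elastases, and 0 passed. The list is mainly enzymes, but also holds the transcription factor nr5a2, the granule protein sycn.2 and the apolipoprotein apoda.2, all 3 of them below 0 (nr5a2 at -0.10, and above 0 without morphant replicate 2). Of 52 genes listed, 22 had a probe set and 18 were tested. In limma's test 0 were higher and 0 lower (1 higher and 4 lower at an unadjusted p under 0.05, beside 11.6% and 6.1% of all probe sets). With a trended and robust variance prior 1 higher and 1 lower passed. The same counts came with 64 added to the linear signals and with the replicate number as a block. With 16 added 1 passed as higher, and with the filter at 50% 1 passed as lower. Below 0 lay 16 of the 18 and above 0 lay 2. The groups were separate and lower in 7 of the 18 (24.7% of all probe sets were) and separate and higher in 2 (25.1% of all). The median difference was -0.83, beside -0.017 over all probe sets tested.

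Control replicate 2 stood apart in this list. Of the 18 genes, 13 were brightest on control replicate 2, and the median difference between the control arrays was 1.25, against 0.64 between the morphant arrays and 0.19 between the control arrays over all probe sets. Averaged over the genes and relative to the control mean, the list stood at -0.89 and -0.54 on the morphant arrays and at -0.51 and 0.51 on the control arrays. Morphant replicate 2 and control replicate 1 were nearly level. Without control replicate 2 the list median was -0.21 and without control replicate 1 it was -1.43.

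ctrb.1, the chymotrypsinogen gene whose older name is ctrb1, gave 9.71 and 9.75 on the morphant arrays and 10.54 and 12.02 on the control arrays. The groups were separate, with control replicate 2 far above the rest. The difference was -1.55 ± 0.48 (SE, adjusted p = 0.197) and, with control replicate 1 left out, -2.29 (adjusted p = 0.0441), which passed. Trypsinogen prss1 gave 11.28 and 12.19 on the morphant arrays and 11.75 and 13.09 on the control arrays, with overlapping groups (-0.68 ± 0.52, SE). c6ast1, a metalloprotease of the astacin family, gave 8.15 and 7.99 against 8.98 and 8.91, a close pair in each group (-0.87 ± 0.17, SE, adjusted p = 0.0723). Another elastase gene, ela3l, gave 6.58 and 7.21 on the morphant arrays and 7.81 and 9.52 on the control arrays (-1.77 ± 0.58, SE, adjusted p = 0.213).

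The amylase amy2al1, which belongs to the starch-cutting enzymes of the acinar cell, pointed the way of cpb1. It gave 8.23 and 7.59 on the morphant arrays and 6.59 and 6.25 on the control arrays, with separate groups. The difference was 1.49 ± 0.27 (SE) and did not pass (adjusted p = 0.0672), while it did with 16 added to the linear signals (1.34, adjusted p = 0.0455). Another amylase of the list, amy2a, lay at -0.53 ± 0.70 (SE), with overlapping groups. cpa1, a carboxypeptidase for other residues, was the other gene of the list above 0, at 0.38 ± 0.19 (SE, adjusted p = 0.380), and was singled out after its value was seen. A further carboxypeptidase, cpa4, lay at -0.74 ± 0.62 (SE), with overlapping groups. cpa5, which in zebrafish also marks mast cells and stands in the granulocyte and mast cell list too, gave 14.13 and 14.16 against 14.27 and 14.07, with overlapping groups.

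**Figure D2:**
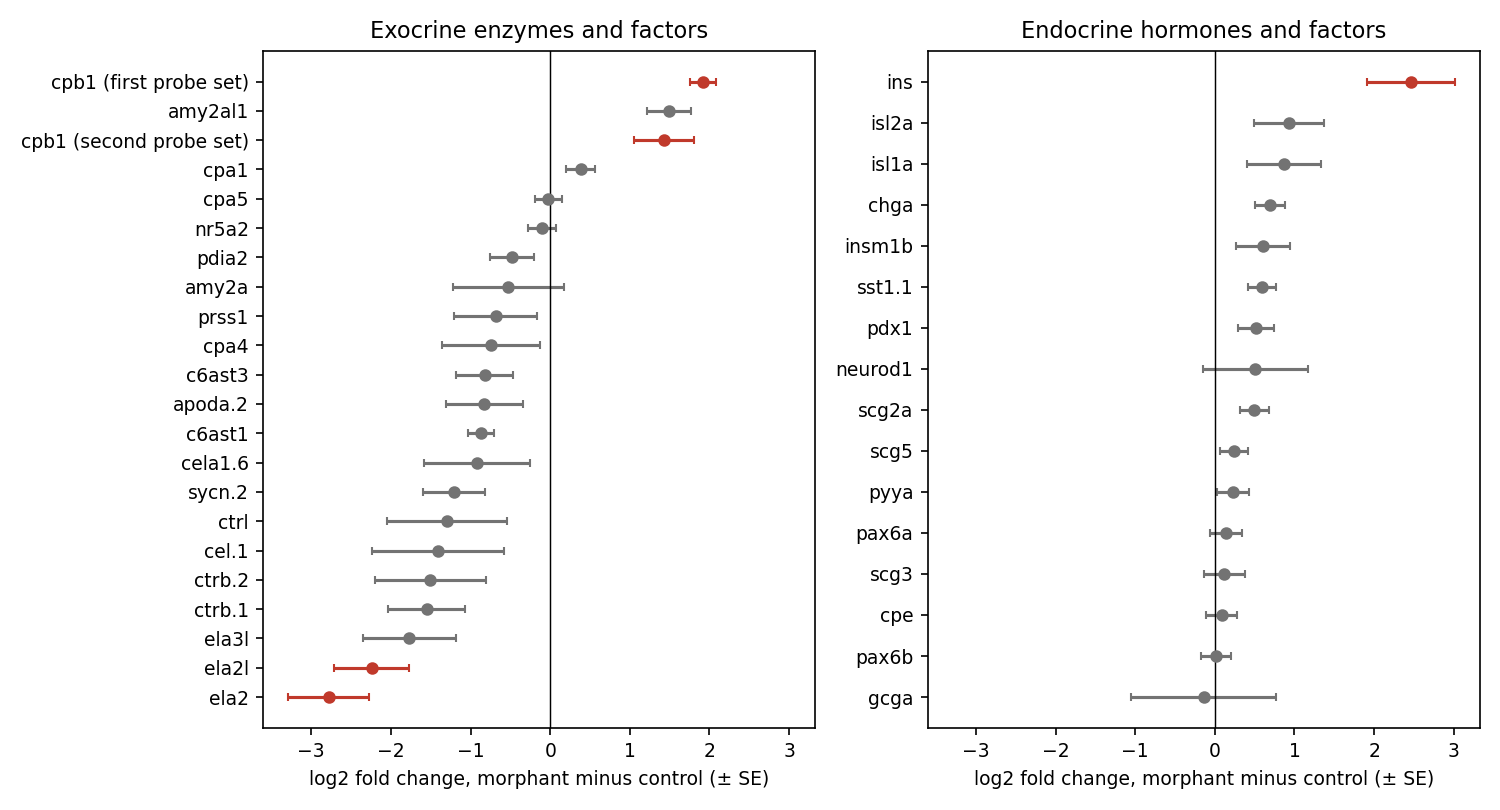
Log2 fold change, morphant minus control, with SE for each tested gene of the exocrine list (left) and the endocrine list (right), the pancreas genes described here in red and the other list genes in grey. ela2 at -2.78 and ela2l at -2.24 stand at the low end of the exocrine genes and ins at 2.46 above the other endocrine genes. The first cpb1 probe set at 1.92 stands at the high end of the exocrine genes, and the second, at 1.43, just below amy2al1 at 1.49.

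The enzyme members were also set against the mean of the exocrine list on the same array. They were chosen with such results known, so a distance from the list is a description and no support. With each gene and the list set to 0 at the control mean, ela2 minus the list was -2.05 and -2.08 in the morphants, and -0.25 and 0.25 in the controls. ela2l minus the list was -1.03 and -2.02 in the morphants, and -0.15 and 0.15 in the controls. The first cpb1 probe set minus the list was 2.75 and 2.52 in the morphants, and 0.50 and -0.50 in the controls. Against the multiciliated cell markers in place of that list, the first cpb1 probe set was 0.28 and 0.37 in the morphants, and -0.032 and 0.032 in the controls. The second was -0.06 and -0.27 in the morphants, and -0.58 and 0.58 in the controls. By that measure ela2 was -4.52 and -4.23 in the morphants, and ela2l -3.50 and -4.17. These values take out what a list shares on an array, and no test is given for them.

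**Figure D3:**
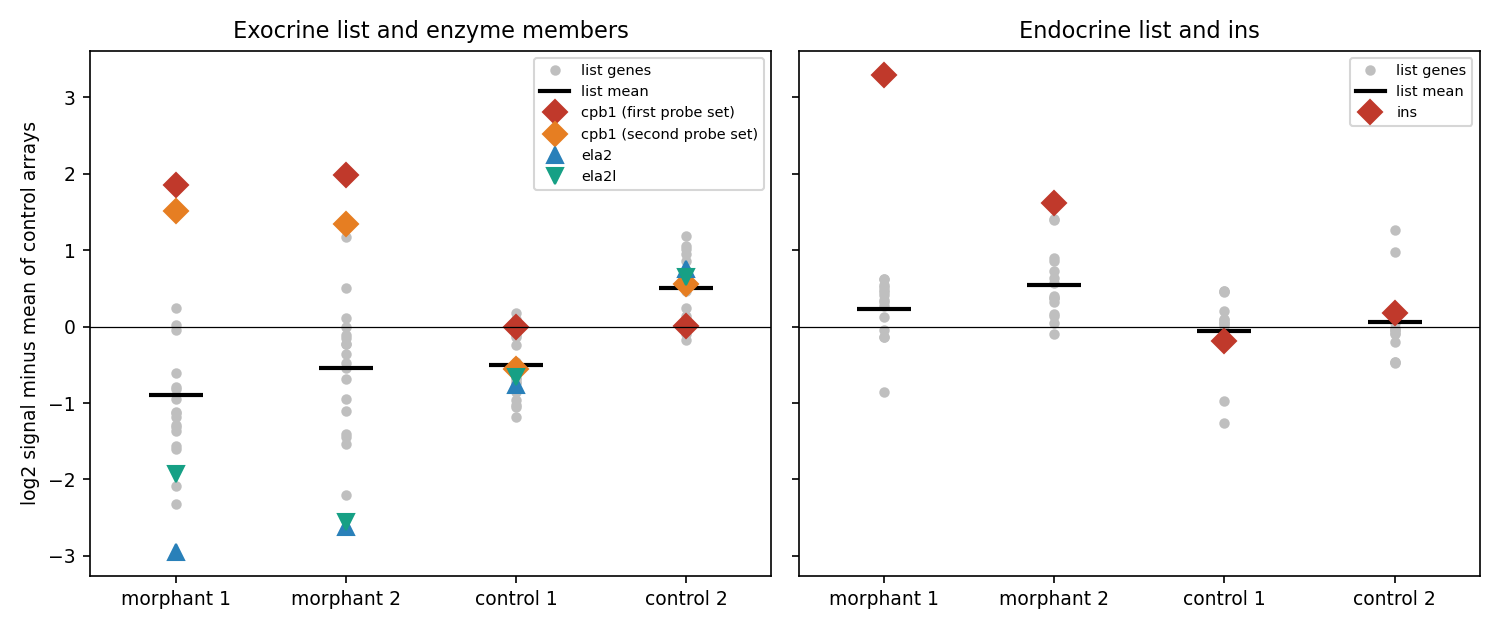
Log2 signal minus the mean of the control arrays on each array, for the genes of the exocrine list with the enzyme members (left) and of the endocrine list with ins (right), with the list mean as a bar. The exocrine list mean is -0.54 on morphant replicate 2 and -0.51 on control replicate 1, while ela2 and ela2l lie below and cpb1 above it on both morphant arrays.

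Endocrine genes other than insulin lay mostly above 0 by small amounts. Of 51 listed, 20 had a probe set and 15 were tested, with 0 higher and 0 lower in limma's test (3 higher and 0 lower at an unadjusted p under 0.05, beside 11.6% and 6.1% of all probe sets, and 0 passed with a trended and robust variance prior). Above 0 lay 14 of 15, the groups were separate and higher in 7 and separate and lower in 0, beside 25.1% and 24.7% of all, and the median was 0.50. It was 0.19 over the 6 genes left when the filter took the dimmest 50% of probe sets. Chromogranin A, chga, a protein of secretory granules, gave 6.75 and 7.09 on the morphant arrays and 6.27 and 6.18 on the control arrays (0.69 ± 0.19, SE, adjusted p = 0.160). The somatostatin gene sst1.1 gave 8.80 and 8.90 against 8.15 and 8.37 (0.59 ± 0.17, SE, adjusted p = 0.177), and the granule gene scg2a 11.36 and 11.11 against 10.84 and 10.64 (0.50 ± 0.19, SE, adjusted p = 0.256). In all 3 the groups were separate. Granule proteins, isl1a, neurod1 and the pax6 genes are also expressed in neurons.

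The glucagon gene gcga, singled out after its values were seen, did not follow ins. It gave 6.89 and 8.33 on the morphant arrays and 6.49 and 9.01 on the control arrays, with overlapping groups. Its control arrays differed by more than its morphant arrays, and the difference of -0.14 ± 0.91 (SE) turned to 1.12 without control replicate 2 and to 0.58 without morphant replicate 1.

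Transcription factors of the pancreas and foregut lay on both sides of 0. Of 16 tested, 8 lay above 0 and 8 below, 0 passed in either direction in limma's test (3 higher and 0 lower at an unadjusted p under 0.05, beside 11.6% and 6.1% of all probe sets, and 2 higher passed with a trended and robust variance prior), and the median was -0.041. When the filter took the dimmest 50% of probe sets only 5 of the 16 were left, with a median of 0.45, and 2 passed as higher. Without control replicate 2 the median was 0.18. pdx1 gave 6.84 and 6.62 on the morphant arrays and 5.97 and 6.46 on the control arrays, with separate groups (0.51 ± 0.23, SE, adjusted p = 0.335). sox9b, a factor of pancreatic ducts and also of kidney and cartilage, gave 9.34 and 9.52 against 8.52 and 8.53 (0.91 ± 0.17, SE, adjusted p = 0.0680), and hnf1bb, which also acts in the kidney, 9.15 and 8.81 against 7.83 and 8.13 (1.00 ± 0.21, SE, adjusted p = 0.0924). ptf1a was below the filter, at 4.92 and 4.65 on the morphant arrays and 4.18 and 4.73 on the control arrays, and was no brighter than the absent-sequence controls on 1 control array.

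Genes for folding and moving secreted proteins through the endoplasmic reticulum, which acinar and islet cells use heavily and all cells need, lay below 0 by small amounts without passing. Of 37 tested, 35 lay below 0, and the groups were separate and lower in 29 (24.7% of all probe sets were). In limma's test 0 passed in either direction (0 higher and 6 lower at an unadjusted p under 0.05, beside 11.6% and 6.1% of all, and 0 passed with a trended and robust variance prior), and the median was -0.30. By the ratio of difference to SE, calr3b, a calreticulin, stood first at -0.77 ± 0.21 (SE, adjusted p = 0.149), while the largest difference was that of pdia4, a disulfide isomerase, at -0.82 ± 0.32 (SE, adjusted p = 0.283).

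Markers of other cells in the tissue block also differed between the arrays. The summed linear signal of 15 intestine genes was 19250 and 12506 on the morphant arrays and 23597 and 29658 on the control arrays. In that sum the groups did not overlap, and control replicate 2 was the highest, as for the elastases. The lowest was morphant replicate 2, as for ela2l, whereas ela2 was lowest on morphant replicate 1. On the morphant arrays ela2l lay only 0.48 and 0.17 above the brightest absent-sequence control, so its order between them is uncertain. On morphant replicate 1 also lay the dimmest value of 10 of the 18 exocrine list genes, and of 0 of the 15 intestine genes. Of the 15 intestine genes 10 lay below 0, 0 passed, and the median was -0.48. Gene by gene, the groups were separate and lower in 7 and separate and higher in 1, beside 24.7% and 25.1% of all probe sets. In the other 7 they overlapped. In limma's test 1 was higher and 6 lower at an unadjusted p under 0.05, beside 11.6% and 6.1% of all probe sets. The 28 liver genes summed to 16576 and 10220 on the morphant arrays and 9435 and 14921 on the control arrays, and overlapped. Their highest array was morphant replicate 1, which was also the highest for ins. The 17 multiciliated cell markers summed to 24638 and 24344 on the morphant arrays and 7758 and 7456 on the control arrays. That is the separation seen for the first cpb1 probe set. Above 0 lay 15 of them and below 0 lay 2, tekt3 (-0.98 ± 0.21, SE) and spag1a (-0.067 ± 0.22, SE). The groups were separate and higher in 15 and separate and lower in 1, tekt3, beside 25.1% and 24.7% of all probe sets. In limma's test 13 passed as higher, against fewer with 1 array left out and 0 without the filter or without moderated variances. Of all probe sets, 2.49% passed as higher. The 20 granulocyte and mast cell genes ranged from 115448 to 120112 in the morphants and from 116093 to 124179 in the controls. The 25 muscle genes ranged from 132393 to 165857 in the morphants and from 164832 to 218140 in the controls. All 25 lay below 0, and the median was -0.72, nearly the size of the exocrine list's -0.83. The arrays behind the 2 medians differed. All 25 muscle genes were brightest on control replicate 1, while 13 of the 18 exocrine list genes were brightest on control replicate 2. Without control replicate 1 the muscle median was -0.44. The groups were separate and lower in 18 of the 25 (24.7% of all probe sets were). In limma's test 0 muscle genes passed, and 12 were lower at an unadjusted p under 0.05, beside 6.1% of all probe sets. With a trended and robust variance prior 7 muscle genes passed as lower, among 101 of the 11626 probe sets tested. The filter removes genes as dim as the absent-sequence controls on all 4 arrays, so these counts cannot hold any. A probe set was found for 34 liver, 20 intestine and 21 granulocyte and mast cell genes, more than were tested. The part of these cells in the values of the pancreas genes, like that of the poly-A controls, was not tested.

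The other genes whose profiles over the 4 arrays came closest to the pancreas genes differed between enzymes. Likeness was the Euclidean distance between log2 profiles centred on their own means, over 4 arrays only, so many genes come close. The pancreas genes themselves were left out of this search, so ela2 and ela2l could not be named as nearest to each other. The first cpb1 probe set lay nearest to cfap58 (distance 0.064), nqo1 (0.10) and ccdc77 (0.13). The second lay nearest to ptprfb (0.15), zgc:195245 (0.22) and kng1 (0.23). ela2 lay nearest to ela3l (1.05), gngt1 (1.25) and ctrb.1 (1.25), and ela2l to gngt1 (0.61), ctrb.1 (0.85) and tagln (0.92). ins lay nearest to a probe set of foxn4 (0.63), zgc:66473 (0.72) and ved (0.76). cfap58 gave 10.48 and 10.65 on the morphant arrays and 8.58 and 8.59 on the control arrays. These were close pairs on either side of a gap like that of the first cpb1 probe set.

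**Figure D4:**
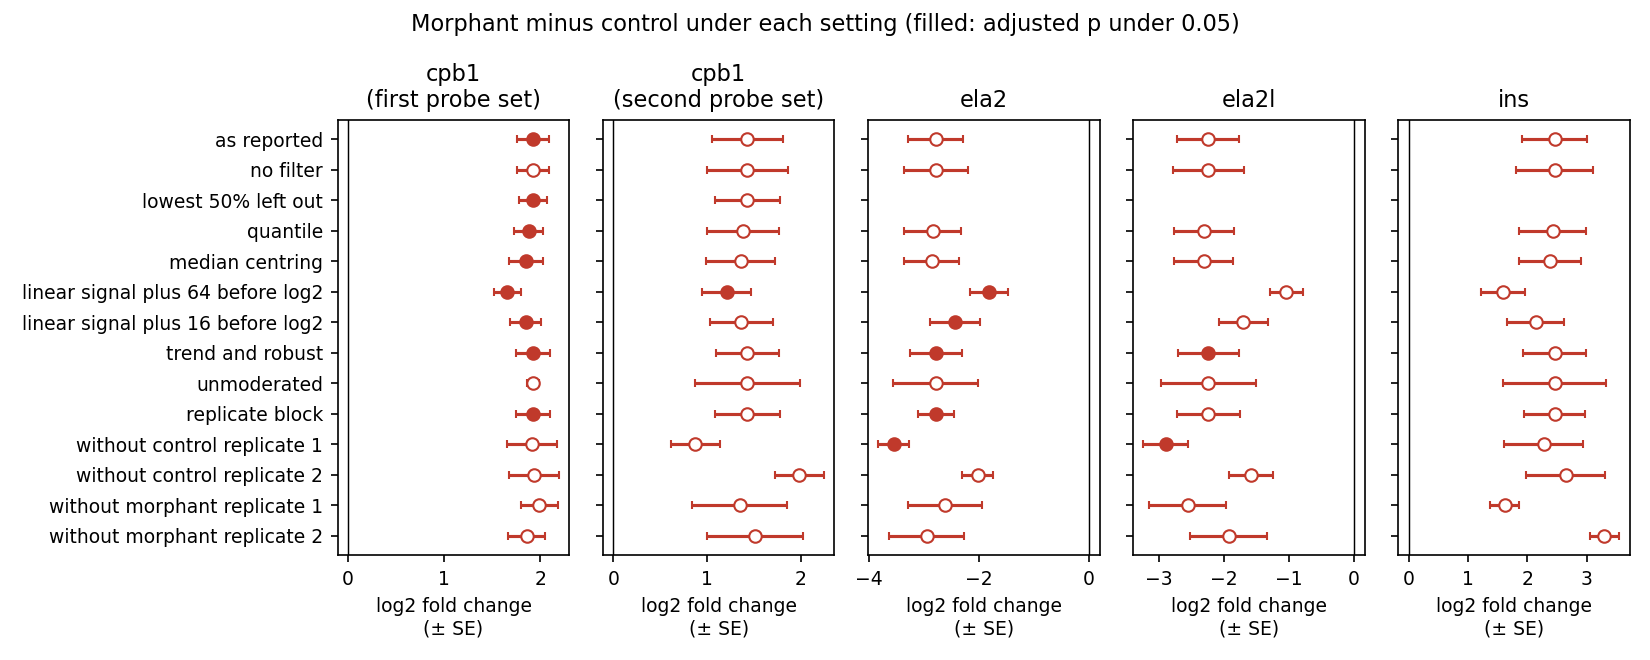
Log2 fold change, morphant minus control, with SE for each of the 5 probe sets (panels) as reported and under 13 other settings (rows), filled where the adjusted p was under 0.05. No direction changed, cpb1's first probe set stayed between 1.65 and 1.99, and ins ran from 1.58 to 3.30 without passing in any setting.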

How the data were processed

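Cells were compared between morphants and controls on Affymetrix zebrafish arrays, with 2 arrays a group, which the series design describes as independent biological sets. Per the labels' protocols, 100 ng of RNA was amplified for each. The deposited values are log2 signals per probe set. The processing notes of the submitters name MAS5 without a version. After 2% was trimmed from each end, the linear signals of every array averaged 500.1, so that the arrays share a common scale. The number of arrays limits the precision.

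Differences, morphant minus control, were fitted with limma 3.58.1 (R 4.3.3) with 1 group term and moderated variances, on all 4 arrays, after leaving out 115 control probe sets and the lowest 25% of the others by mean. Benjamini-Hochberg adjustment ran over all of them (threshold 0.05). The fit was tested on simulated data. The plan foresaw adding 16 to linear signals; as the values were already log2, none was added. Of the probe sets, 10795 had 1 gene symbol, 135 several and 4572 none. Symbols were updated by Entrez number through the RefSeq table, which also gave the order of neighbouring genes; its coordinates are not printed.

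Lists hold 1 probe set per gene, the brightest. The members and lists were chosen with earlier results of these data known. The text names all member probe sets, part of the genes with the strongest statistic or the brightest signal in each list (up to 3 of each), and the 3 nearest profiles per member. The genes ela3l, sycn.2, apoda.2, nr5a2, pdia4, cpa1, gcga, pdx1, ptf1a, alas2, epd, panx1b and insb were otherwise chosen after their values were seen. The same holds for amy2a, cpa4, tekt3 and spag1a. Alternatives covered the filter, quantile and median scaling, pseudocounts, the variance prior, the replicate block and each array left out.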

Additional observations from a re-analysis of the deposited data

How the results depend on the processing

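No member changed direction in any of the 13 alternatives, of which the elastases and ins could not be fitted with the filter at 50%, since they are then not tested. The first cpb1 probe set was not past the threshold without the filter or with unmoderated variances (1.92 in both) and without any 1 array (1.86 to 1.99). ela2 passed with a pseudocount of 64 (-1.82) or 16 (-2.43), with a trended and robust prior (-2.78) and without control replicate 1; over the arrays left out it ran from -3.54 to -2.02. With the replicate number as a block ela2 also passed (-2.78, adjusted p = 0.0413). ela2l passed with a trended and robust prior (-2.24) and without control replicate 1 (range -2.90 to -1.59), and the second cpb1 probe set with a pseudocount of 64 (1.21; 0.88 to 1.98 over the arrays left out). ela2l was in these fits only because its control arrays lifted its mean past the filter. ins passed in none of the alternatives (1.62 to 3.30 over the arrays left out). Adjusted p ran from 0.000499 to 0.241 for the first cpb1 probe set, 0.0437 to 0.502 for the second, 0.0172 to 0.436 for ela2, 0.0294 to 0.461 for ela2l and 0.0514 to 0.477 for ins. Over all probe sets tested, same-numbered arrays deviated together at r = 0.021, which does not settle whether the numbers pair the arrays for these genes. The exocrine list mean rose from replicate 1 to replicate 2 in both groups, from -0.89 to -0.54 in the morphants and from -0.51 to 0.51 in the controls. With the block the SE of ela2 went from 0.50 to 0.33 and that of ela2l from 0.47 to 0.48. The block gave 196 higher and 11 lower probe sets in all.

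Over all probe sets 290 were higher and 14 lower. The counts were 0 and 0 without the filter (1380 and 647 at an unadjusted p under 0.05) and 0 and 0 unmoderated (935 and 494), 495 and 81 with a pseudocount of 64, 508 and 101 with a trended and robust prior, 63 lower with the filter at 50%, 8 lower after quantile scaling and 34 lower with a pseudocount of 16. Leaving out 1 array gave 0 to 53 higher and 0 to 7 lower. The exocrine list median ran from -1.43 to -0.21 and the endocrine from 0.27 to 0.40 over the arrays left out. Signs turned for cpa5 (-0.13 to 0.073 over the arrays left out), nr5a2 (-0.23 to 0.026), gcga (-1.40 to 1.12) and ppib (-0.011 after median centring, and -0.025 to 0.15 over the arrays left out). The causes were not tested. Signals near the absent-sequence controls, as for ela2l in the morphants, limit what can be measured. Promoter motifs were not analysed here.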
